A study of Mus musculus with 2 samples.

Results

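Foxp3 and 9 forkhead relatives were read in regulatory T (Treg) cells of 2 samples, 1 wild-type and 1 Nr4a-TKO. The members were the forkhead factors of the Foxp, Foxo and Foxk branches and Foxj1 that T cells are known for: Foxp3, Foxp1, Foxp2, Foxp4, Foxo1, Foxo3, Foxo4, Foxj1, Foxk1 and Foxk2. They were found by the gene name written beside each probe, which gave 22 probes for 10 genes, of 55676 probes for 34960 gene names on the array. Each sample was total RNA of sorted Treg cells from mice 5 weeks old, labelled with Cy3 and hybridised to its own 1-colour Agilent array. The wild-type sample carries no alteration by the labels. For the Nr4a-TKO sample the labels give a triple-knockout name and call the cells Nr4a-deficient, and do not say which exons were removed or in which cells. The sex, the number of mice behind a sample and the sorting markers are not given in the sources used here. The study asked how Nr4a receptors take part in the Treg transcription program.

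Forkhead factors share a winged-helix DNA-binding domain. Foxp3 is the lineage factor of Treg cells, and it works with partner proteins to hold up Treg genes and to hold down effector cytokines such as Il2. Foxo factors are driven out of the nucleus when PI3K and Akt are active, and in resting T cells they hold up genes of homing and quiescence such as Klf2 and S1pr1. Foxp1 keeps naive T cells quiescent, Foxj1 is the master factor of motile cilia, and Foxk1 and Foxk2 act in autophagy and glycolysis. Nr4a receptors are nuclear receptors that bind DNA as monomers at a motif called NBRE, and the Foxp3 gene is among their known targets.

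The probe and the promoter behind the largest difference among the members are shown here. Foxp3 was read by 1 probe, at chrX:7172301-7172360 on the plus strand of mm9, the build written in the array files. The first 30 of its 60 bases are printed below, followed by the 250 bases before each of the 2 Foxp3 starts that RefSeq lists on GRCm38.p6. These starts lie 807 bases apart on the plus strand, at chrX:7579426-7579675 and chrX:7580233-7580482 for the bases shown. Capitals mark AGGTCA, the core of the NBRE, read on either strand.
Foxp3 probe: attatgtgttggagtgtgcctgaacagctc
Foxp3 promoter 1: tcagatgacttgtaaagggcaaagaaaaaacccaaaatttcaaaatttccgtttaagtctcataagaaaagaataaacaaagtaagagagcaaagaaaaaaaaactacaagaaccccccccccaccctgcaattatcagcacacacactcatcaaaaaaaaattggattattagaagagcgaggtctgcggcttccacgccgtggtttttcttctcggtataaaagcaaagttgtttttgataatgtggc
Foxp3 promoter 2: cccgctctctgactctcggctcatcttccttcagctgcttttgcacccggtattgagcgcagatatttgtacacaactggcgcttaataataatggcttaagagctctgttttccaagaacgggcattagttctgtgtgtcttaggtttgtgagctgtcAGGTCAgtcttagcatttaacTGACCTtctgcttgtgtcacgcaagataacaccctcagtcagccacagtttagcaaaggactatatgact

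Promoter windows of 300 bases, 250 before and 50 after a start, were found for 6 of the 10 members, 9 windows in all. The whole NBRE, AAAGGTCA, was in 0 of these 9 windows on either strand and in 495 of all 32851 windows of the table (1.51%). The shorter AGGTCA, which lies inside the NBRE, was searched after the whole motif had given no match. It was in 2 of the 9 windows, those of Foxk2 and of the second Foxp3 start, against 16.3% of all windows. The second Foxp3 window held it 2 times, once on each strand, beginning 91 and 70 bases before the start with 15 bases between the matches, and 594 of all windows (1.81%) held at least 2. The core forkhead motif TGTTTAC was in 0 of the 9 windows and in 3.65% of all windows. A match is a description of letters in a window and not a binding site.

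The label of the Nr4a-TKO array was set against the Nr4a probes before any direction was drawn. On log2 signals scaled to each array's 75th percentile (0 on that scale), Nr4a3 read -1.11 in wild-type and -3.93 on the array labelled Nr4a-TKO, a difference of -2.82, or -1.71 after another background correction, normexp, which pulls dim spots together. Nr4a2 read -1.16 and 0.18, a difference of 1.34, and Nr4a1 read 6.90 and 6.96. Whether these probes lie in a deleted part is not given, so these values do not settle the label, and every direction below is that of the array labelled Nr4a-TKO. In all, 66.0% and 63.9% of the probes were well above background on the wild-type and the Nr4a-TKO array. All 10 CD4 T and Treg markers of a fixed list were measured on both arrays, with a summed scaled signal of 1066 in wild-type and 931 in Nr4a-TKO, and Ctla4 and Ikzf2 were past 2-fold lower. Of the markers of other cells, 4 of 8 for B cells, 6 of 8 for CD8 and NK cells, 4 of 8 each for granulocytes and for macrophages and dendritic cells, 5 of 8 for epithelial and stromal cells and 1 of 5 on the array for erythroid cells and platelets were measured on both. Their summed scaled signals ran from 0.19 to 5.80, except 140 and 137 for macrophages and dendritic cells, nearly all from Siglech. Among them Ly6g (2.75), Gzma (1.78), Cd79b (1.33), Eomes (1.31) and Krt18 (1.28) were past 2-fold higher on the Nr4a-TKO array, and Mpo (-2.96) was past 2-fold lower, or -1.61 after normexp. Klrd1, S100a9 and S100a8 were well above background in wild-type only, at least 6.25-, 3.02- and 2.61-fold lower in Nr4a-TKO, with normexp folds of 3.33, 1.89 and 1.80, and Col1a1 was so in Nr4a-TKO only, at least 2.46-fold higher, with a normexp fold of 1.51. The defining Ms4a1 and Itgax were dim on both arrays (not well above background). Part of the sex-linked genes differed as well: 2 Xist probes measured on both arrays were 7.83 and 8.57 higher on the Nr4a-TKO array. The other Xist probes were well above background on the Nr4a-TKO array only, at least 69.8- to 1056-fold higher. The Y-linked Ddx3y, Eif2s3y and Uty differed by -1.86, -0.98 and -0.60 at their brightest probes and were still measured there. The 2 measured Uty probes gave -1.44 and -0.60. Kdm5d, also Y-linked, was well above background in wild-type only, at least 1.87-fold lower in Nr4a-TKO, with a normexp fold of 1.41. The part of cell makeup and of sex-linked genes in the differences below was not tested.

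Foxp3 was lower in the cells labelled Nr4a-TKO. Its processed signal was 2412 ± 241 in wild-type and 127 ± 14.6 in Nr4a-TKO, where the error is the scanner software's own estimate for the spot. The scaled log2 signal was 1.54 and -2.57, a difference of -4.11 (a 17.2-fold lower signal), beside a scanner error of the difference of 0.22. The probe stayed well above background on both arrays. With 1 array per genotype there is no replicate check: no p-value was computed, and the scanner error holds no variation between mice or RNA preparations. It was the 12th lowest difference among 23494 gene names measured on both arrays. After normexp the difference was -3.37 (10.3-fold), and over 11 other settings it lay between -4.34 and -3.37. In bulk RNA, fewer Foxp3-positive cells and less Foxp3 RNA per cell cannot be told apart.

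**Figure D1:**
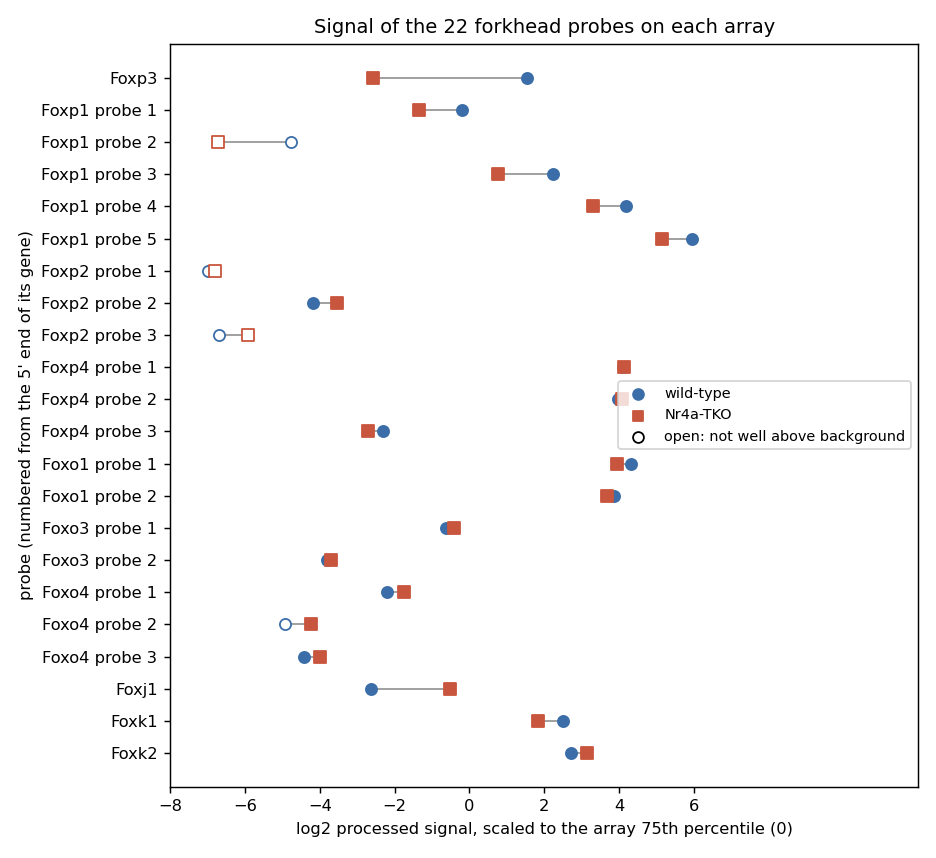
Log2 processed signal of all 22 forkhead probes, scaled to the array's 75th percentile, on the wild-type array (circles) and the Nr4a-TKO array (squares), 1 spot each, with probes of a gene numbered from its 5' end and open symbols for spots not well above background. The widest gaps between the arrays at filled symbols are those of Foxp3 (1.54 to -2.57) and Foxj1 (-2.63 to -0.53).

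Of the 22 probes, 18 were well above background on both arrays, 1 on the Nr4a-TKO array only and 3 on neither. Each probe had 1 spot. Across 279 probes printed at least 3 times, the median SD between spots of the same probe was 0.06 on either array, or 0.08 for a difference between arrays. The difference was larger than its scanner error at 13 of the 18 measured probes and at the brightest probe of 8 of the 10 genes, all but Foxp4 and Foxo3. At gene level, read at the brightest probe, 1 member was at least 2-fold lower (Foxp3), 1 at least 2-fold higher (Foxj1), and 8 lay between. Over all measured gene names, 720 (3.06%) were at least 2-fold lower and 741 (3.15%) at least 2-fold higher, 6.22% in either direction. The split of the calls depends on the scaling: centred on the spike-in probes it was 1084 lower and 505 higher, on the spike-in probes above background 1147 and 480, and on housekeeping genes 994 and 554, which moved the median of all genes by -0.21, -0.23 and -0.16. The members' median difference was 0.11 and that of all genes 0.08, with 4 members below 0 and 6 above. On chromosome X, where Foxp3 and Foxo4 lie, 27 of 874 measured names (3.09%) passed 2-fold downwards and 26 (2.97%) upwards, 6.06% in all, around a median of 0.08.

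**Figure D2:**
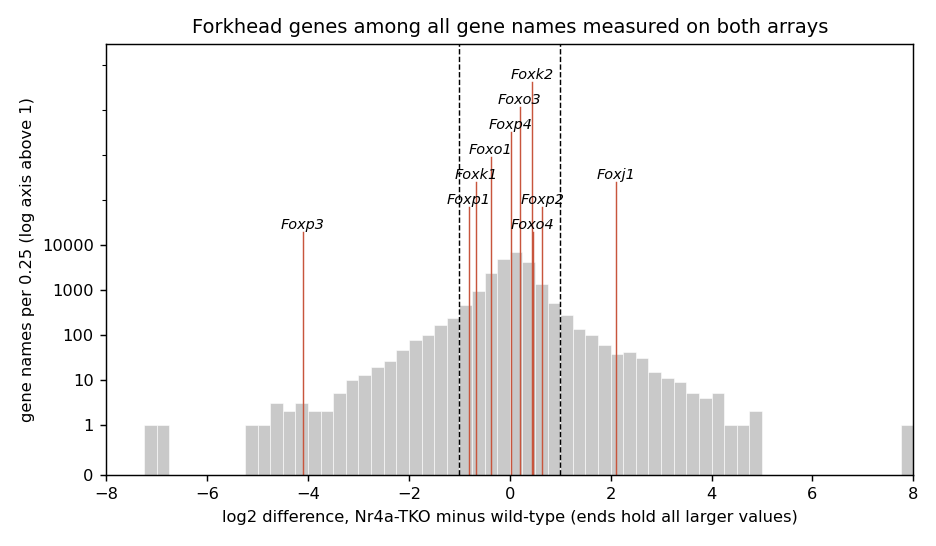
Histogram of the log2 difference, Nr4a-TKO minus wild-type, over 23494 gene names measured on both arrays, in bins of 0.25 with a log axis for the number of names, the 10 forkhead genes marked by lines whose height has no meaning and dashed lines at 2-fold. Foxp3 at -4.11 and Foxj1 at 2.10 stand past the dashed lines, and the other members lie between -0.81 and 0.64.

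Foxp1, the quiescence factor of naive T cells, was lower at each of its 4 measured probes. The array has 5 probes for it, spread over 233 kb of the gene and numbered here from its 5' end, on the minus strand of chromosome 6. Probe 5, the brightest, read 51744 ± 5174 in wild-type and 26731 ± 2673 in Nr4a-TKO, a log2 difference of -0.81 (1.75-fold lower). Probe 4, which crosses a splice junction, read 15155 ± 1515 and 7461 ± 746, a difference of -0.88. Probe 3 read 3911 ± 391 and 1276 ± 128, a difference of -1.47, and was designed on a cDNA clone with no RefSeq match. Probe 1 read 729 ± 73.2 and 293 ± 30.1, a difference of -1.17. Probe 2 was dim on both arrays and gives no value. The 4 measured probes thus lay on both sides of 2-fold, and the gene counted as past 2-fold lower under 3 of 11 other settings, both spike-in centrings and the mean of its probes (-1.08). At its brightest probe, 1048 of 23494 gene names had a difference as low or lower, Foxp1 included. The sequences of the probes that RefSeq transcripts share are given in full, since the probes differ in the size of the difference.
Foxp1 probe 1: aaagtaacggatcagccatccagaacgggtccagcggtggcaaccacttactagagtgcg
Foxp1 probe 4: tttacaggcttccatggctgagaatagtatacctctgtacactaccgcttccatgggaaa
Foxp1 probe 5: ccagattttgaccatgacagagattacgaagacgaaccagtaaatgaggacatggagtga

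**Figure D3:**
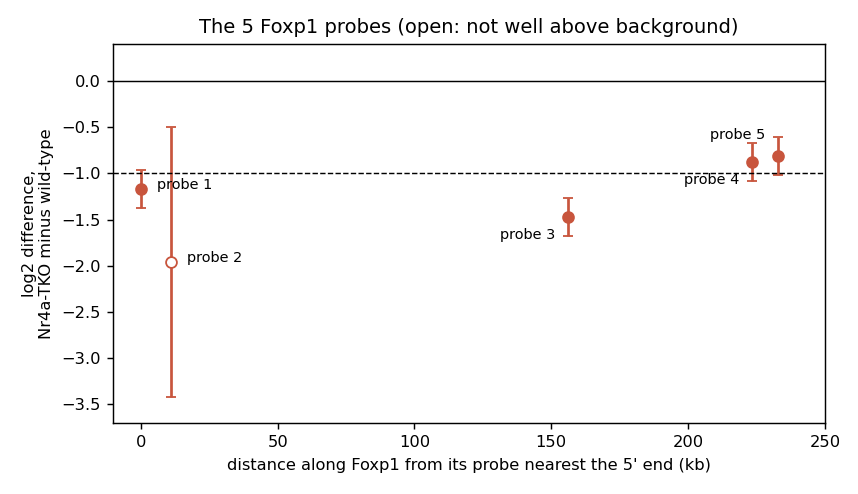
Log2 difference, Nr4a-TKO minus wild-type, of the 5 Foxp1 probes against their distance along the gene from the probe nearest its 5' end, with bars for the scanner error of the difference and a dashed line at 2-fold. The 4 measured probes (filled) lie between -1.47 and -0.81, and the open symbol is probe 2, not well above background.

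The other members of the Foxp branch, Foxp4 and Foxp2, were apart from Foxp3 and Foxp1. Foxp4, which can pair with Foxp1, read 14358 ± 1436 and 13226 ± 1323 at its brightest probe, a difference of 0.02 that is within the scanner error of 0.20 and turned below 0 under 8 of 11 other settings. A second probe that shares 54 bases with it gave 0.12, and another, at 166 ± 17.6 and 116 ± 13.0, gave -0.38. Foxp2, best known from the brain, was near background: 2 of its 3 probes were not well above background, and the remaining probe read 45.3 ± 8.35 and 64.1 ± 9.43, a difference of 0.64 with a scanner error of 0.34.

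The Foxo factors differed little between the arrays. Foxo1, the main Foxo factor of T cells, read 16670 ± 1667 in wild-type and 11641 ± 1164 in Nr4a-TKO, a difference of -0.37 (1.30-fold lower), and its second probe gave -0.20. The brightest Foxo3 probe was designed on a cDNA clone with no RefSeq match. It read 542 ± 54.5 and 562 ± 56.5, a difference of 0.19 within the scanner error of 0.21, and turned below 0 under both spike-in centrings. That Foxo3 probe shares a run of 20 bases with probes of other names, the only 1 of the 22 that does. The other Foxo3 probe, 61.7 kb away and designed on a RefSeq transcript, was dim at 59.9 ± 9.58 and 58.1 ± 9.56 and gave 0.10. Foxo4, which lies on chromosome X as Foxp3 does, read 180 ± 19.5 and 223 ± 23.6, a difference of 0.45 (1.37-fold higher). That brightest Foxo4 probe was designed on an Ensembl transcript with no RefSeq match. A dim Foxo4 probe designed on a RefSeq transcript, at 38.9 ± 6.92 and 47.6 ± 7.70, gave 0.43. A probe that shares 52 bases with it was well above background on the Nr4a-TKO array only. Its plain difference was 0.71 beside a scanner error of 0.51, or 0.29 after normexp. None of the Foxo differences reached 2-fold under any of the 11 other settings.

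Foxj1, the master factor of motile cilia, which also restrains T cell activation, was higher. Its probe at chr11:116192214-116192273 of mm9 read 134 ± 15.2 in wild-type and 521 ± 52.6 in Nr4a-TKO. The scaled log2 signal was -2.63 and -0.53, a difference of 2.10 (4.29-fold higher) with a scanner error of 0.22, and 1.60 (3.02-fold) after normexp. It was past 2-fold under all 11 other settings, and 144 of 23494 gene names had a difference as high or higher, Foxj1 included. The first 30 of its 60 bases, from the gene's only probe, are given here.
Foxj1 probe: ggagagactaatatagtgaatgtagttata

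Foxk1 and Foxk2 differed in opposite directions. Foxk1 read 4707 ± 471 in wild-type and 2683 ± 268 in Nr4a-TKO, a difference of -0.67 (1.59-fold lower). Foxk2 read 5443 ± 544 and 6695 ± 670, a difference of 0.44 (1.36-fold higher). Each was read at 1 probe, kept its sign under 11 other settings and did not reach 2-fold under them.

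**Figure D4:**
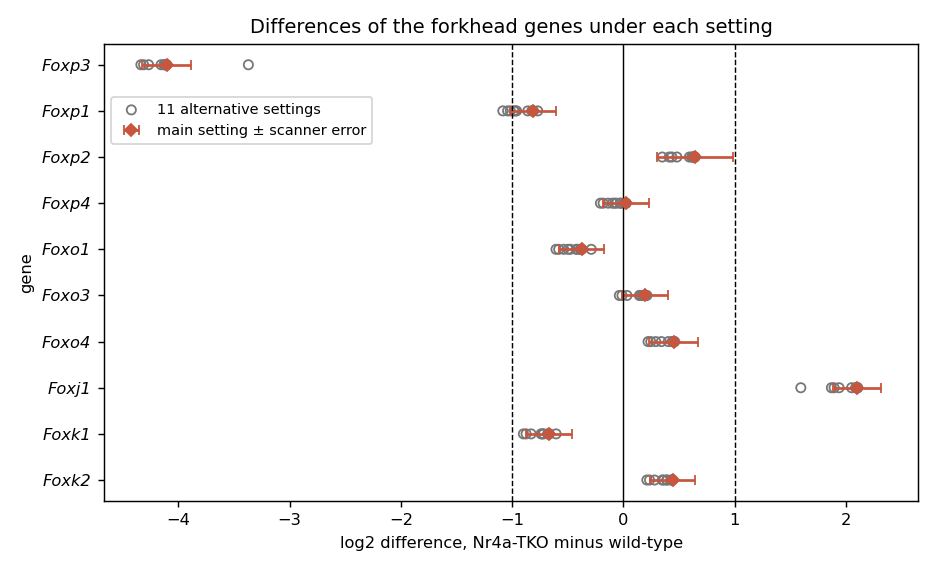
Log2 difference, Nr4a-TKO minus wild-type, of the 10 forkhead genes in the main setting (diamonds, with bars for the scanner error of the difference) and in 11 other settings of background, scaling and probe choice (open circles), with dashed lines at 2-fold. Foxp3 (-4.34 to -3.37) and Foxj1 stay past 2-fold in each setting, Foxp1 lies on both sides of the line, and Foxp4 and Foxo3 lie on both sides of 0.

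Of the other forkhead genes measured on both arrays, 0 passed 2-fold in the main setting, beside 6.22% of all genes. With so few genes, 0 lies near that share. Of 34 further names of the form Fox plus letter and number, 15 were measured on both arrays, 2 on 1 array and 17 on neither. Their differences had a median of -0.10. The lowest were Foxn3, at 1.90 and 0.99 (-0.90), and Foxd2, at -0.59 and -1.48 (-0.90), both of which passed 2-fold under the spike-in and housekeeping centrings. Foxm1, a factor of the mitotic program, read 2.20 and 2.51, a difference of 0.32.

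Genes tied to Foxp3 were then read, first those that Foxp3 is known to hold up in Treg cells. Of 20 such genes, 17 were measured, with a median of -0.30 beside 0.08 for all genes. Past 2-fold, 3 were lower (17.6%, beside 3.06% of all genes) and 2 were higher (11.8%, beside 3.15%). Ikzf2, which encodes Helios, read 0.90 and -0.72 (-1.62). Ctla4, the inhibitory receptor of Treg cells, read 4.23 and 3.04 (-1.20), and Ikzf4, which encodes Eos, 4.68 and 3.59 (-1.09, past 2-fold under 10 of 11 other settings). In the other direction, Nrp1, a surface marker of thymic Treg cells, read -2.29 and -0.60 (1.69), and Ebi3, a subunit of IL-35, 3.13 and 4.18 (1.05). Ebi3 stayed past 2-fold under 6 of 11 other settings. Il2ra, the alpha chain of the IL-2 receptor, lay within 2-fold at -0.39.

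Genes that Foxp3 is known to hold down numbered 15, of which 14 were measured. Past 2-fold, 5 of them were higher (35.7%, beside 3.15% of all genes) and 1 was lower (7.14%, beside 3.06%). The median was 0.22. Il21, a cytokine of follicular helper T cells, read -0.89 and 3.05 (3.94), and Il4, the Th2 cytokine, -0.83 and 1.46 (2.30). Id2, an inhibitor of E proteins, was 1.70 higher, Themis, a thymocyte signalling protein, 1.68 higher, and Il2 1.07 higher. Il2 stayed past 2-fold under 5 of 11 other settings. Ifng, the Th1 cytokine, was lower, at -0.54 and -2.51 (-1.97). Il17a was well above background in wild-type only, at least 15.3-fold lower in Nr4a-TKO in the main setting, and 5.72-fold lower after normexp.

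Proteins that bind Foxp3 and regulators of the Foxp3 gene had medians near that of all genes. Of 24 partner proteins 23 were measured, and Gata3, which binds Foxp3 and drives Th2 cells, was lower at 4.29 and 2.47 (-1.82). Their median was 0.14. All 26 regulators were measured, with a median of 0.07. Of them, 3 passed 2-fold downwards (11.5%, beside 3.06% of all genes) and 1 upwards (3.85%, beside 3.15%). Beside Nr4a3 and Nr4a2, described above, these were Ets1, at 5.24 and 4.04 (-1.20), and Bach2, at 3.41 and 2.31 (-1.10), both transcription factors of T cells. Ets1 stayed past 2-fold under 10 of 11 other settings.

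Among the targets of Foxo factors, 9 of 28 were at least 2-fold lower (32.1%, beside 3.06% of all genes) and 1 was higher (3.57%, beside 3.15%). Foxo1, Foxo3 and Foxo4 themselves lay within 2-fold. Like the other lists, this list was chosen with earlier results of these data known, and all genes were not matched to it for signal. All 28 were measured, 20 were below 0, and the median was -0.29. Klf2, a factor of quiescence and homing, read 4.62 and 0.76 (-3.86). S1pr1, the receptor that lets T cells leave lymphoid organs, read 2.98 and 0.75 (-2.23). Fasl, the death ligand, differed by -2.23 and Pink1, a kinase of mitochondrial quality control, by -1.85. The pseudokinase genes Trib1 and Trib2 differed by -1.46 and -1.32, and Pik3ip1, an inhibitor of PI3K, by -1.16. Irs2, an insulin receptor substrate, was 1.07 higher, past 2-fold under 5 of 11 other settings. Il7r, the IL-7 receptor chain and a known Foxo1 target, lay within 2-fold at 0.73.

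Of 25 kinases and modifiers that act on Foxo factors, all were measured, with a median of 0.09. Sgk1, which phosphorylates Foxo factors, was higher at -1.82 and -0.28 (1.55). Stk3, a kinase of the Hippo pathway, was lower (-1.43), as was Pik3r1, a regulatory subunit of PI3K (-1.07), past 2-fold under 10 of 11 other settings. The lists tied to the Foxk factors and to Foxj1 held 0 calls in either direction, beside 6.22% of all genes. With so few measured genes, 0 calls lie near that share. The Foxk list held autophagy and glycolysis genes of the Foxk programs, and also Bap1 (0.07) and Sin3a (0.07). Of its 21 genes 20 were measured, with a median of 0.10. The Foxj1 list held motile cilium genes, known targets of Foxj1, and also Nfkbia (-0.003) and Nfkbib (-0.13), which are not cilium genes. Of its 19 genes 12 were measured, with a median of 0.11, and 6 were dim on both arrays.

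**Figure D5:**
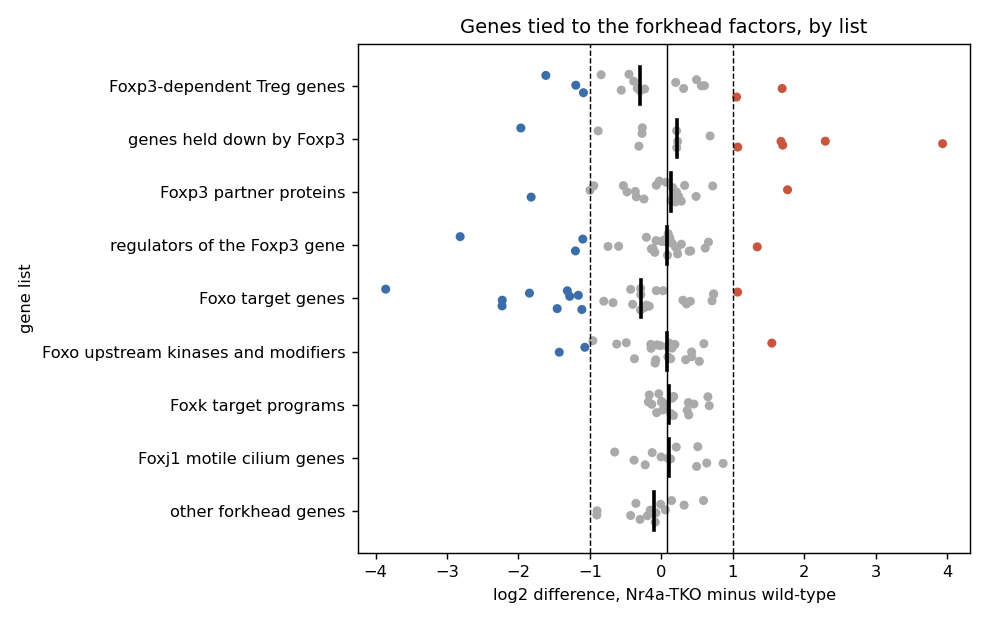
Log2 difference, Nr4a-TKO minus wild-type, of the measured genes of each list tied to the forkhead factors and of the other forkhead genes, 1 point a gene, coloured where at least 2-fold lower (blue) or higher (red), with a thick bar at the list's median, a thin line at the median of all genes (0.08) and dashed lines at 2-fold. The Foxo target genes hold 9 points past 2-fold lower, and the Foxk, Foxj1 and other forkhead rows hold 0.

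The genes beside Foxp3 were read as well. Within 250 kb of its probe 27 other names have probes, of which 23 were measured on both arrays. Of these few names 0 were past 2-fold, beside 6.22% of all genes. Their differences ran from -0.93 to 0.57. The lowest was Flicr, a noncoding RNA gene next to Foxp3, whose probe lies 17.0 kb away and read -2.33 and -3.26 (-0.93), past 2-fold under 3 of 11 other settings. Ccdc22, with a probe 1.25 kb from that of Foxp3, read 4.27 and 3.69 (-0.58). Around Foxj1, 15 of 18 names were measured and 3 were past 2-fold, all higher, beside 3.15% of all genes. Rnf157, 5.78 kb away, differed by 1.57, and Ubald2, 108 kb away, by 1.43. Sphk1, a sphingosine kinase 205 kb away, differed by 4.41, or 3.27 after normexp.

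The 6 named genes whose difference was nearest to that of Foxp3, a likeness over 1 difference between 2 arrays, were Myo6 (-4.19), Klf2 (-3.86), Slx (-4.43), Tmem169 (-3.73), Xlr (-4.54) and Atp1b1 (-3.63). After normexp Slx, Tmem169 and Xlr differed by -3.18, -2.28 and -2.91. Slx and Xlr lie on chromosome X with Foxp3, and Klf2 is among the Foxo targets above.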

How the data were processed

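The authors deposited 2 scanner files with spot intensity values (Agilent Feature Extraction, version 10.10.1.1 in the headers) and a table of log2 values of the same probes. These deposited log2 values equalled the log2 processed signal less a constant per array, with column medians of -3.54 and -3.53; the origin of that constant is not stated there. The files annotate probes on mm9, and no coordinate was moved between builds.

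Control and flagged spots were left out, signals taken as log2, averaged over a probe's spots and centred at the 75th percentile of each array. A gene was read at its brightest probe and counted as measured where both arrays had it well above background. A lower bound set the bright array against the higher of the dim array's own signal and its lowest signal above background. Symbols came from RefSeq GRCm38.p6 through the transcript for 27509 probes, and 28172 kept the file's name; a few list genes were matched through synonyms, a step added after seeing the data. Saturated spots were 0 on both arrays. With 1 array per genotype no test was possible, so genes were counted at 2-fold. Named genes were the 10 members, up to 8 of each list past 2-fold, the 6 nearest to Foxp3, neighbours within 250 kb and the label checks; Il2ra, Il7r, Foxn3, Foxd2, Foxm1 the other-cell markers and the list members with bounds were chosen after their values were seen. Some genes that the rule takes are left out of the text.

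The members, gene lists and alternatives were chosen with earlier results of these data known. The scanner error, the AGGTCA search, the single Foxp1 probes and the centring on 9 of the 10 spike-in probes were added after seeing the data. The counting was tested on simulated data. Python 3 scripts and limma were used.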

Additional observations from a re-analysis of the deposited data

How the results depend on the processing

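No paired analysis was possible because each genotype has 1 array, and no replicate could be left out for the same reason. No difference of a member past 2-fold changed sign in the 11 settings run beside the main one. Foxp3 differed by -3.37 with normexp, -4.31 and -4.34 with the centrings on all spike-in probes and on those above background (the latter chosen after the former had been seen), and -4.27 with the housekeeping centring. Members at least 2-fold lower numbered 1 in the main setting, 2 with either spike-in centring and with the mean of probes, 3 at a threshold of 1.5-fold, and 0 with a stricter filter on dim probes, which leaves out the dim Foxp3 and Foxj1 spots; members higher numbered 2 at 1.5-fold and 0 with the stricter filter. All genes lower numbered 457 with normexp, 1084 and 1147 with the spike-in centrings, 1834 with no filter, 309 with the stricter filter, 1728 at 1.5-fold and 283 at 3-fold; all genes higher numbered 478 with normexp, 480 with the spike-in probes above background, 1988 with no filter, 293 with the stricter filter, 1965 at 1.5-fold and 288 at 3-fold. For chromosome X, lower names numbered 11 with normexp, 45 with the spike-in probes above background, 80 with no filter, 8 with the stricter filter, 63 at 1.5-fold and 7 at 3-fold, and higher names 89 with no filter, 8 with the stricter one, 70 at 1.5-fold and 12 at 3-fold. Genes of the 8 lists together numbered 30 lower and 24 higher at 1.5-fold, 8 and 6 at 3-fold. Other forkhead genes lower numbered 2 with both spike-in centrings, the housekeeping centring, no filter and 1.5-fold; higher they numbered 2 with no filter and 1 at 1.5-fold. Beyond the settings' own construction (fewer or more genes tested, another threshold, a shifted centre), the cause was not tested. Signal over background limits Foxp2, Foxo4, the second Foxo3 probe, Foxj1 in wild-type and Foxp3 in Nr4a-TKO.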

Other observations

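The promoter windows of the members differed in base content. The windows of the 2 Foxp3 starts held 6 and 8 CpG dinucleotides with a GC content of 40.7% and 47.7%, beside a median of 7 CpG and 52.7% over all windows of the table. Foxk2 had 59 CpG and 79.3% GC, Foxp4 33 and 70.3%, and Foxo1 31 and 61.3%. The 3 Foxp1 windows ranged from 5 to 44 CpG. The AGGTCA letters of the Foxk2 window began 217 bases before its start, on the minus strand.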
